A study of Saccharomyces cerevisiae with 4 samples.

Results

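The unirradiated (No UV) UVDE-seq libraries of *rad16*Δ and WT yeast are described here, chosen as the 2 libraries of the series that the labels give no UV treatment, out of 4 in all. Each holds the read counts of all 16 dinucleotides, and all 16 are reported. The WT strain was BY4741, a common haploid laboratory strain of budding yeast, and the *rad16*Δ strain was MP072, a haploid that lacks *RAD16*. By the study’s strain list, MP072 is MATa and carries his3Δ1, leu2Δ0, met15Δ0 and ura3Δ0, the alleles that mark BY4741 as well. It also carries trp1::HIS3 and rad16::TRP1, a TRP1 marker in place of RAD16, so MP072 differs from BY4741 at TRP1 and HIS3 markers besides RAD16. The growth note in the labels names BY4741 only. Both were grown in YPD, a rich medium, and moved to water without irradiation, while the other 2 libraries, 1 of each strain, came from cells collected immediately after 600 J/m2 of UVC light (0 hr UV). No library had been left without UVDE, so reads that need the enzyme and reads that start at other DNA ends cannot be told apart.

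Rad16 acts with Rad7 in global genomic nucleotide excision repair (GG-NER), the branch of repair that finds bulky lesions outside transcribed strands. In UVDE-seq, a photolyase first reverses the cyclobutane dimers and the endonuclease UVDE then nicks the DNA on the 5′ side of the lesions that are left. By the study’s methods, the samples were kept under UV light during the photolyase step. No UV therefore describes the cells and not the extracted DNA, and what that light added to the reads was not tested. An adaptor joined to the new 3′-OH places the start of each read beside a dinucleotide, written 5′ to 3′, where a lesion would lie. Enzymes of the UVDE family are also known to cut some damage that UV does not make, such as abasic sites. A 3′-OH that escaped the blocking step or arose after it can take the adaptor as well. Reads from unirradiated cells therefore give the level against which lesions are read.

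*RAD16* (YBR114W) is a protein-coding gene at chrII:467248-469620 of the R64 assembly. It holds between 0.0157% and 0.0220% of the nuclear occurrences of any dinucleotide, so its loss barely alters the number of sites. The counts carry no genomic positions, and the deletion could therefore not be checked from them. The libraries also carried different barcodes in the adaptor that joins the 3′-OH. The barcodes are shown because each library had its own adaptor, also within a strain. Capitals mark the 5 of 8 bases that differ between the WT and *rad16*Δ No UV libraries.
A1, WT No UV: AAGAGgat
A3, *rad16*Δ No UV: CCTGAgat
With 1 library a side, the deletion, the other marker changes, the culture, the barcode and the library preparation cannot be told apart, and there was no replicate spread to hold a difference against. No test was therefore made. The 95% intervals given below cover counting error only, and they treat PCR-amplified reads as independent molecules. The WT library held 9697523 reads and the *rad16*Δ library 11458403, which is 1.18 times as many.

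Without UV irradiation of the cells, reads in both strains already favoured the class of Dipyr sequences, the pairs of adjacent pyrimidines at which UV makes its main lesions. These 4 dinucleotides make up 26.8% of the sites in the nuclear genome, counted on both strands, but they held 45.18% of WT reads (95% Wilson interval 45.15%–45.21%) and 43.60% of *rad16*Δ reads (43.57%–43.62%). The purine-purine dinucleotides, their reverse complements, also make up 26.8% of sites and held 16.3% of WT and 17.01% of *rad16*Δ reads. A pyrimidine followed by a purine held 17.2% and 18.1% of reads on 23.2% of sites, and a purine followed by a pyrimidine held 21.3% in both strains on an equal share of sites. As a pool, Dipyr sequences thus exceeded their part of the genome in both unirradiated libraries, and the purine-purine group fell short of it. CT did not follow the pool, with 4.84% of WT and 5.06% of *rad16*Δ reads on 5.84% of sites.

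Divided by occurrences in the 16 nuclear chromosomes, the libraries averaged 0.402 reads per site in WT and 0.475 in *rad16*Δ yeast. TC, the Dipyr sequence at which (6–4) photoproducts are most frequent after UV, had the most reads per site in both, with 0.863 in WT and 1.053 in *rad16*Δ yeast. TT followed with 0.851 and 0.892. TC thus lay at 2.15 times the library mean in WT and 2.22 times in *rad16*Δ yeast, and TT at 2.12 and 1.88 times. The 2 Dipyr sequences that start with C were closer to the mean: CC lay at 1.04 and 1.13 times, and CT at 0.829 and 0.868 times.

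TA, which is no dipyrimidine but at which UV is known to form a rarer photoproduct, had 0.398 reads per site in WT and 0.458 in *rad16*Δ yeast. These are 0.990 and 0.966 times the library means, so TA was near the mean when all reads were divided by nuclear sites. Reads from the mitochondrial genome may be among them, and TA makes up 21.1% of its sites against 7.33% of nuclear sites. AT, made of the same bases in the other order, had 1.16 and 1.08 times the mean. GG was the lowest in both libraries, with 0.171 reads per site in WT and 0.220 in *rad16*Δ yeast. In WT the next lowest were GA (0.200) and CA (0.206), which held the same ranks in *rad16*Δ yeast (0.261 and 0.271). The other 7 mixed and purine-purine dinucleotides lay between 0.522 times (CG) and 0.851 times (AC) the mean in WT and between 0.610 times (AG) and 0.928 times (AC) in *rad16*Δ yeast. The highest value was 5.04 times the lowest in WT and 4.78 times in *rad16*Δ yeast. Over the 16 dinucleotides, log2 reads per site in the strains had a Pearson correlation of 0.990, as a description of points that share the genome and the assay.

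**Figure D1:**
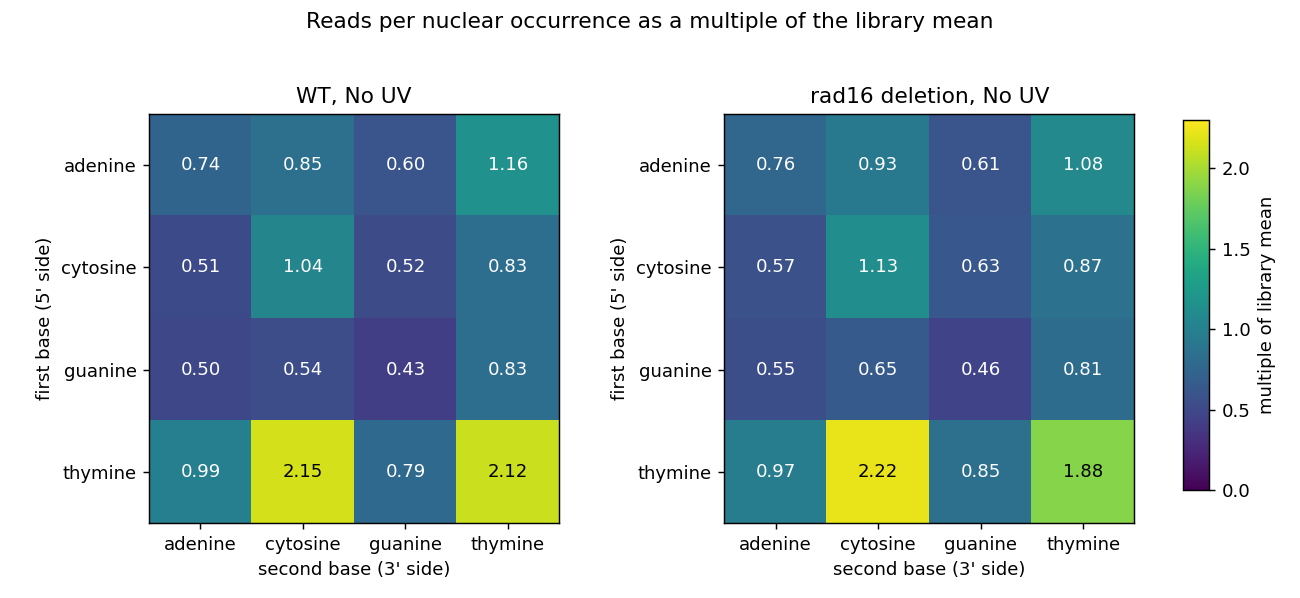
Reads per occurrence in the nuclear genome divided by the library mean, for each first base (rows) and second base (columns) of the dinucleotide, in the WT and *rad16*Δ No UV libraries. Thymine followed by cytosine or thymine stands highest in both (2.15 and 2.12 in WT, 2.22 and 1.88 in *rad16*Δ yeast), and guanine-guanine lowest (0.427 and 0.464).

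Much of this pattern followed the 2 bases taken one at a time. In an additive split of the log2 reads per site, the first base carried 51.9% of the variation in WT and 51.1% in *rad16*Δ yeast, the second base 38.9% and 40.0%, and the particular combination of both 9.23% and 8.90%. Relative to the average dinucleotide, log2 reads per site with a first T stood at 0.76 in WT and 0.68 in *rad16*Δ yeast, while those with a first G stood at -0.54 and -0.49. At the second base, T stood at 0.49 and 0.36 and C at 0.32 and 0.38, with G at -0.51 and -0.45. In WT a second T thus lay above a second C, and in *rad16*Δ yeast slightly below it. TC exceeded what its bases gave separately by 0.33 in WT and 0.33 in *rad16*Δ yeast on the log2 scale. GC stood at -0.35 in WT and -0.28 in *rad16*Δ yeast relative to its bases taken separately, and TG at -0.29 and -0.23.

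In shares of reads, T was the first base in 48.7% of WT and 46.7% of *rad16*Δ reads against 30.9% of sites. It was the second base in 42.5% and 39.3%. C was the second base in 24.0% and 25.5% of reads against 19.1% of sites, but the first base in only 13.8% and 14.99%. C was therefore over-represented at one position and under-represented at the other. G was under-represented at both, as the first base in 11.2% and 11.9% of reads and as the second in 11.8% and 12.7%.

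**Figure D2:**
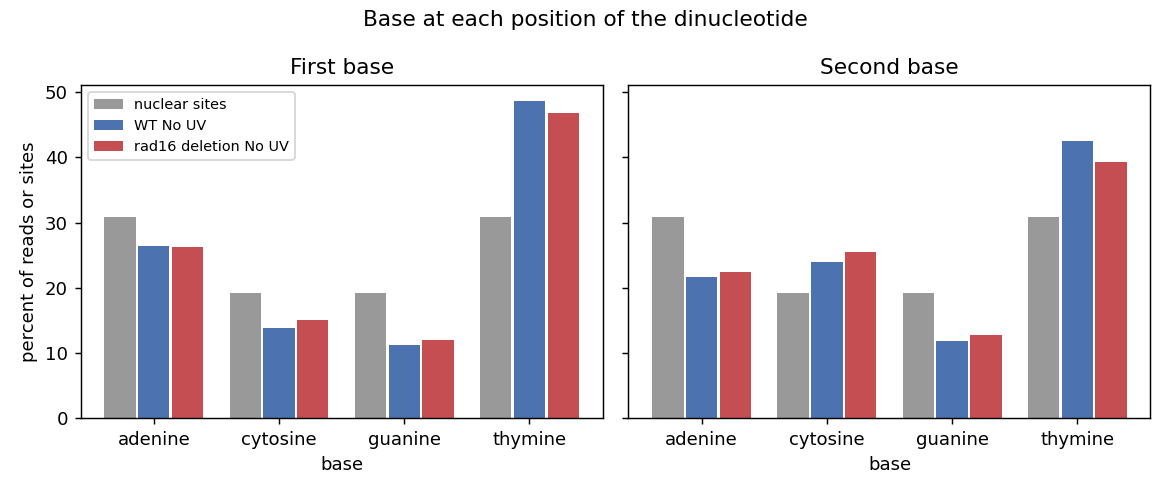
Percent of No UV reads with each base at the first (left) and second (right) position of the dinucleotide in WT and *rad16*Δ yeast, beside the percent of nuclear sites. Thymine exceeds its 30.9% of sites at both positions in both libraries, and cytosine exceeds its 19.1% only at the second.

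By share of the library, the ratios farthest from 1 were those at CG, GC and TT. TT held 2219093 of the WT reads and 2327110 of the *rad16*Δ reads, or 22.88% and 20.31%. Its share in *rad16*Δ yeast was thus 0.888 times that in WT (95% interval 0.886–0.889), a difference of -2.57 percentage points, the largest of the 16 in either direction. A share was counted as past the fold where the larger of the strains’ shares exceeded the smaller by over 5%. AT was the only other dinucleotide past it in the direction of TT, with 10.4% of WT and 9.66% of *rad16*Δ reads, a ratio of 0.927 (0.925–0.930). At the other end, CG held 148646 reads (1.53%) in WT and 210851 (1.84%) in *rad16*Δ yeast, a ratio of shares of 1.20 (1.19–1.21). GC held 197589 reads (2.04%) and 278403 reads (2.43%), a ratio of 1.19 (1.19–1.20). CG and GC are the rarest dinucleotides in the yeast nuclear genome, so these ratios correspond to few reads, 0.307 and 0.392 percentage points.

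Of all 16 dinucleotides, 8 (50.0%) had a share past the fold and higher in *rad16*Δ than in WT yeast, and 2 (12.5%) a share past it and lower. The split depended on the scaling, with 4 higher and 4 lower when scaled by the purine-purine reads, 3 and 4 by the median ratio, and 6 and 3 by the total without TT. With the library total as the scale, the other 6 lay within it. Shares sum to the whole, and the reads other than TT had a pooled ratio of 1.03. The median ratio was 1.06. The values just past the upper fold were 1.077 at TG and 1.079 at CC, and the nearest within it was 1.046 at CT. Just past the lower fold was AT, and the nearest within it was TA at 0.975.

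Among the Dipyr sequences, TT alone had a lower share of the library in *rad16*Δ yeast, whereas scaled by the median ratio TC (0.973) and CT (0.986) also lay below 1. CC had a ratio of shares of 1.08 (1.07–1.08), from 4.06% to 4.38% of reads. CT had 1.0463 (1.0424–1.0502), from 4.84% to 5.06%, and TC had 1.03 (1.03–1.04), from 13.4% to 13.8%. CC was past the fold, 1 of the 4 in the upward direction against 50.0% of all dinucleotides. Pooled, the 4 Dipyr sequences had a ratio of 0.965 (0.964–0.966), and without TT the pool of the other 3 had a ratio of 1.044 (1.043–1.046). TT held 22.9% of WT reads and those 3 together 22.3%. The side of 1 on which the pool without TT lay depended on the scaling, at 0.999 when scaled by the purine-purine reads and 0.984 by the median ratio.

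TA held 703973 WT reads (7.26%) and 811338 *rad16*Δ reads (7.08%), a ratio of shares of 0.975 (0.972–0.978). The purine-purine reads, a class with no pyrimidine at which a dipyrimidine lesion could form, had a pooled ratio of 1.0455 (1.0435–1.0475), with single values of 1.11 at GA, 1.09 at GG, 1.03 at AA and 1.01 at AG. Among the mixed dinucleotides, CA (1.12), AC (1.09) and TG (1.08) were higher in *rad16*Δ yeast, while GT stood at 0.977. These 3 were past the fold and GT was not.

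The ratios ran with the number of G and C in the dinucleotide, a grouping chosen after the values had been seen. The 4 dinucleotides of A and T alone had ratios from 0.888 to 1.03, with a median of 0.951, and none was past the fold in the upward direction. The 8 with a single G or C had ratios from 0.977 to 1.12, with a median of 1.06, and 4 were past it. The 4 of G and C alone had ratios from 1.08 to 1.20, with a median of 1.14, and all 4 were past it. The corresponding background over all 16 was 50.0%. These counts hold with the library total as the scale. Scaled by the purine-purine reads, CC (1.03) and GG (1.04) lay within the fold, while CG (1.15) and GC (1.14) stayed past it. With that scaling 4 of all 16 were past the fold in the upward direction. The A and T group held 48.5% of WT and 45.3% of *rad16*Δ reads, and the G and C group 9.30% and 10.5%. Over the 16 dinucleotides, the log2 ratio had a Pearson correlation of 0.791 with the number of G and C. Both are properties of a single pair of libraries, and dinucleotides that share a base are not independent.

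**Figure D3:**
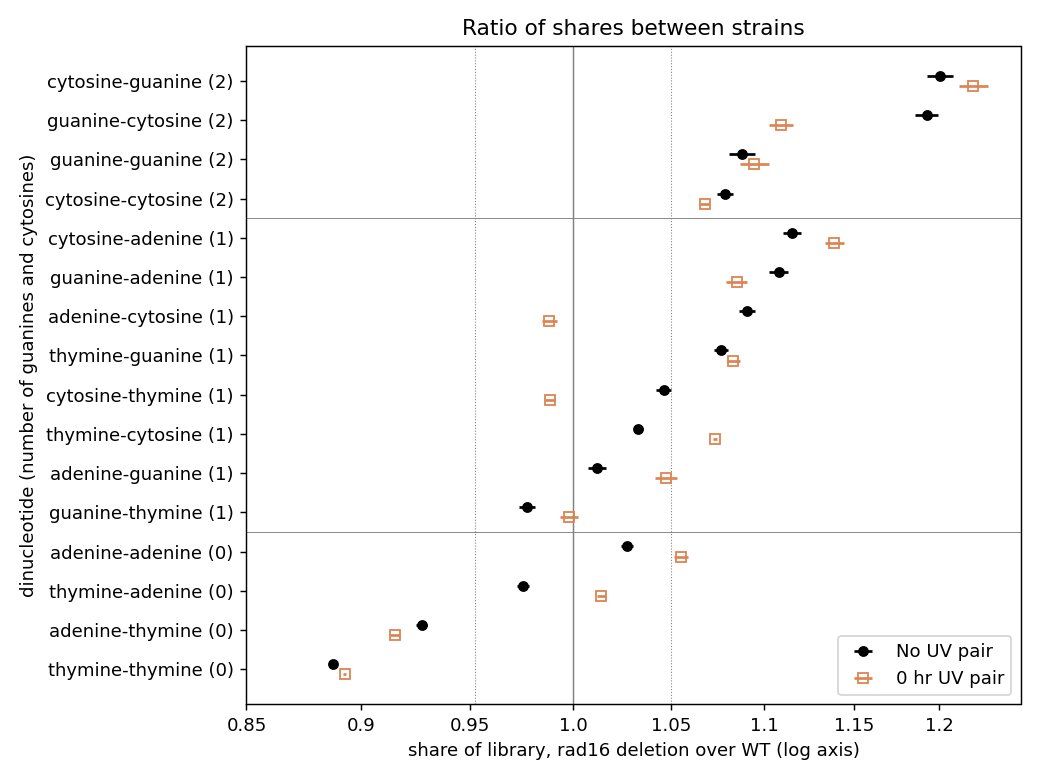
Share of the library in *rad16*Δ over that in WT yeast for each dinucleotide, grouped by its number of guanines and cytosines (in parentheses), for the No UV pair (filled) and the 0 hr UV pair (open). Bars are 95% counting intervals, dotted lines mark the 5% fold, and the No UV values run from 0.888 at thymine-thymine to 1.20 at cytosine-guanine.

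Of the whole variation in log2 ratio, which includes this trend, the base at the second position carried 47.3% and the base at the first 35.5%. A second T stood lowest, at -0.13, and a first T at -0.08, whereas a second A stood at 0.01 and a first A at -0.05. TT combined both T effects, and AA, which has the same G and C content, had neither. TT and AA occur equally often on both strands together, and their ratios were 0.888 and 1.03. Scaled by the purine-purine reads both lay below 1, at 0.849 and 0.982, with AA still the higher.

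The reverse complement of a dinucleotide occurs as often as the dinucleotide itself when both strands are counted, so the ratio of their reads depends on neither library size nor genome composition. TT reads were 2.86 times AA reads in WT (95% interval 2.86–2.87) and 2.47 times in *rad16*Δ yeast (2.47–2.48). The ratio in *rad16*Δ was 0.864 times that in WT yeast (0.861–0.867), the largest difference among the 6 pairs of this kind. TC was 4.32 times GA in WT and 4.03 times in *rad16*Δ yeast, or 0.933 times as high (0.928–0.937). These Dipyr sequences that start with T were thus less favoured over their complements in *rad16*Δ yeast.

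For CC over GG the values were 2.45 and 2.43, a relative change of 0.992 (0.984–0.999), which is the smallest of the 6. CT over AG was 1.38 in WT and 1.42 in *rad16*Δ yeast, a relative change in the other direction of 1.03 (1.03–1.04). TG over CA was 1.54 and 1.49, or 0.965 times as high (0.960–0.971). AC over GT was close to even in WT, at 1.025 (1.021–1.029), but 1.14 in *rad16*Δ yeast (1.139–1.148), a relative change of 1.12 (1.11–1.12). AC had a share ratio of 1.09, past the fold, and GT one of 0.977, within it.

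All 6 ratios were above 1 in both libraries, so each Dipyr sequence outnumbered its purine-purine complement without UV. TG over CA and AC over GT hold no Dipyr sequence, and their side of 1 depends on which member is written on top. Of the variation in the 16 log2 share ratios, 79.9% was common to a dinucleotide and its reverse complement and 20.1% was opposite between them. TA, AT, GC and CG are their own reverse complements, so they count wholly as common by construction. They include CG and GC, whose share ratios of 1.20 and 1.19 were the highest, and this raises the 79.9%. TA reads were 0.697 times AT reads in WT and 0.733 times in *rad16*Δ yeast, against 0.820 times as many sites. GC reads were 1.33 and 1.32 times CG reads, against 1.28 times as many sites, and their ratio between strains, 0.993, had an interval (0.985–1.00) that held 1.

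**Figure D4:**
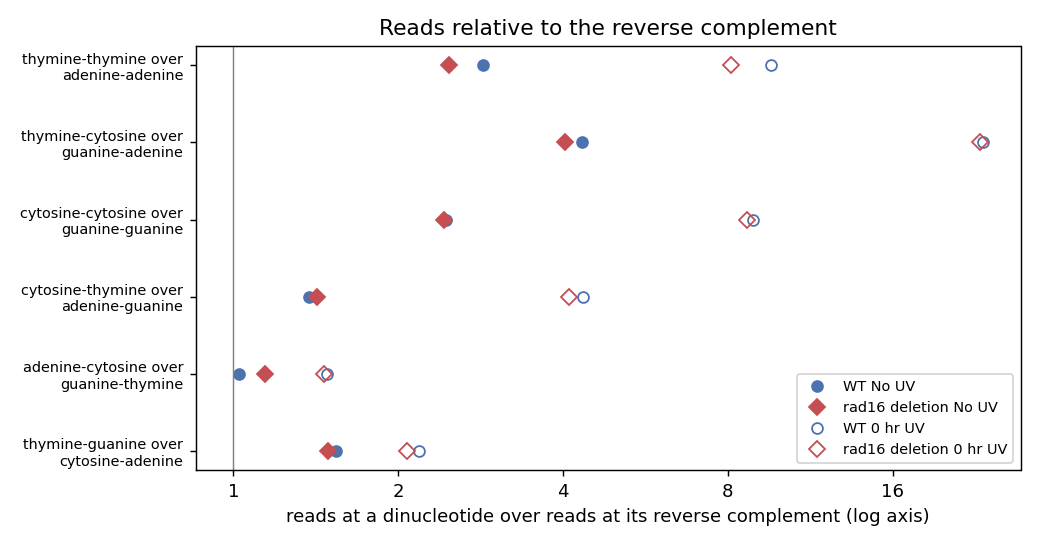
Reads at each dinucleotide divided by reads at its reverse complement, on a log axis, in the No UV (filled) and 0 hr UV (open) libraries of WT (circles) and *rad16*Δ (diamonds) yeast. All No UV values lie above 1, from 1.025 for adenine-cytosine over guanine-thymine to 4.32 for thymine-cytosine over guanine-adenine, both in WT. For the pairs without a Dipyr sequence, the side of 1 depends on which member is on top.

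The No UV pair was set beside the 0 hr UV pair of the same strains, which shares no library with it. By the study’s methods the unirradiated cells were set aside before the rest were irradiated, so the pairs may share cultures. TT had a *rad16*Δ to WT share ratio of 0.888 without UV and 0.893 at 0 hr UV, AT of 0.927 and 0.915, CG of 1.20 and 1.22, and GC of 1.19 and 1.11. CA had 1.12 and 1.14, and CC 1.08 and 1.07. These 6 had the same direction in both pairs, and at GC the ratio was nearer to 1 after UV. By share of the library, 13 of all 16 lay on the same side of 1, with AC, CT and TA as the exceptions. GT is among the 13, although its 0 hr UV ratio of 0.998 had an interval (0.994–1.003) that held 1. Scaled by the purine-purine reads there were also 13, with AC, CT and TC as the exceptions, and by the median ratio 14, with AC and TC. With the purine-purine scale CT stood at 1.0008 without UV, so its side of 1 is not settled. The log2 ratios had a Pearson correlation of 0.873 across dinucleotides, which are not independent. TT over AA was also lower in *rad16*Δ yeast at 0 hr UV, by a factor of 0.846, with values of 9.59 in WT and 8.11 in *rad16*Δ yeast. Each strain was represented by 1 library in each pair.

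The positive share differences between the unirradiated strains summed to 3.61 percentage points, the part of the reads that would have to change dinucleotide to turn the WT profile into that of *rad16*Δ yeast. Between the strains at 0 hr UV it was 3.76 points. The 0 hr UV profile stood 25.0 points from that without UV in WT and 25.9 points in *rad16*Δ yeast, 6.93 and 7.19 times the strain difference without UV. The unirradiated profiles themselves stood 20.9 points (WT) and 18.3 points (*rad16*Δ) from an even use of nuclear sites, so the *rad16*Δ library was the closer to the composition of the genome. The log2 strain ratio without UV had a Pearson correlation of -0.33 over the 16 dinucleotides with the log2 ratio of 0 hr UV to No UV shares in WT yeast. The WT No UV library is the denominator of both ratios, so they are not separate measures, and the dinucleotides are not independent.

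The mitochondrial genome is richer in A and T than the nuclear genome, and the counts do not say how many reads came from it. TA and AT make up 21.1% and 21.0% of its sites on both strands, against 7.33% and 8.94% of nuclear sites, and TT and AA 15.4% each against 10.8%. The share ratios of these 4 between strains were, in that order, 0.975, 0.927, 0.888 and 1.03. The part of mitochondrial reads in the strain difference, and in the reads per nuclear site given above, was not tested.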

How the data were processed

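UVDE-seq reads (Ion Proton) were mapped by the authors with bowtie2 (Bowtie2 2.2.6, with SAMtools and bedtools, on sacCer3, per the submitters' processing notes), and the dinucleotide beside each read was counted. The deposited values are these counts, whole numbers without normalization. What became of duplicate, multiply mapped and mitochondrial reads is not given in the sources used here. Samples were grouped by their titles. Shares of the library total were given Wilson intervals. Ratios of shares and of reverse complements were given 95% log-scale intervals for counting error. A ratio of shares over 5% from 1, as larger over smaller, was called past the fold, and other limits and scalings were tried. Sites per dinucleotide were taken from the 16 nuclear chromosomes of R64 (sacCer3 is its browser name), with both strands included. Dinucleotides given in full were the 4 Dipyr sequences, TA, and those highest or lowest by share ratio or by reads per site. Members, lists and rules were chosen with earlier results of these data known. On simulated counts of independent reads, 95.1% of share-ratio and 94.95% of reverse-complement intervals held the true ratio. The intervals assume such reads, so the simulation says nothing of PCR duplicates or of spread between libraries. Scripts ran in Python 3.11.15 with scipy 1.17.1, using numpy 2.4.6, and figures were drawn with matplotlib 3.10.9.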

Additional observations from a re-analysis of the deposited data

Results flagged for a closer look

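By share of the library, the difference between strains pointed in opposite directions in the No UV and the 0 hr UV pair for 3 dinucleotides, with counting intervals that left out 1 in both. The *rad16*Δ to WT ratio of shares was 1.09 without UV and 0.988 at 0 hr UV for AC, 1.046 and 0.989 for CT, and 0.975 and 1.01 for TA. Where 1 lies depends on the scaling, chosen for both pairs after seeing the data. Scaled by the purine-purine reads TA lay below 1 in both pairs, at 0.933 and 0.953, and scaled by the median ratio CT did so as well, at 0.986 and 0.931. AC kept opposite directions under both, at 1.04 and 0.929 and at 1.03 and 0.931. Opposite directions were also seen for 2 ratios to the reverse complement, which no scaling alters. The *rad16*Δ to WT ratio of CT over AG was 1.03 without UV and 0.944 at 0 hr UV, and that of AC over GT was 1.12 and 0.990. With 1 library for each strain and treatment, the difference between the pairs was not tested.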

How the results depend on the processing

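Scaling sets where the ratios lie around 1, but multiplies all 16 by the same factor and leaves their order and the ratios to reverse complements as they are. The *rad16*Δ to WT ratio at TA was 0.933 when scaled by the purine-purine reads, 0.919 by the median of the 16 ratios, 1.15 without scaling and 0.944 by the total without TT. The last setting was chosen after seeing the data. The pooled Dipyr ratio was 0.923, 0.909, 1.14 and, with TT left out of the pool as well, 1.01. Without scaling, TT had a ratio of 1.049 and AT of 1.096, above 1 because the *rad16*Δ library is larger. Of 59 alternative values for the 15 dinucleotides other than TA, 13 lay on the other side of 1. A limit of 10% in place of 5% left 5 dinucleotides past it (4 higher and 1 lower) in place of 10, and 2% gave 15 (11 higher and 4 lower). Scaled by purine-purine reads, 4 were higher and 4 lower, by the median 3 and 4, and without TT 6 and 3.

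The share of variation that followed the first base in WT and *rad16*Δ yeast was 51.8% and 51.5% weighted by occurrences, 50.3% and 49.1% on a linear scale, and 51.6% and 50.8% with the mitochondrial genome. By the SD of the log2 share ratios, the 0 hr UV and No UV profiles differed 6.87 times as much in WT and 6.90 times in *rad16*Δ yeast as the unirradiated strains did, and the strains at 0 hr UV 0.958 times as much.

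No paired analysis was possible because each group had a single library, which also left no replicate to omit. At this depth counting error was under 1% of every share ratio, and the number of libraries limits the comparisons.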
